A study of Arabidopsis thaliana with 12 samples.

Results

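A set of 6 loci of Arabidopsis thaliana was followed that the authors' deposited table lists as higher in nrpe1 seedlings than in wild-type Col-0: AT5G27845, AT5G35205, AT5G35207 and AT4G04293, which the annotation classes as pseudogenes, and the protein-coding genes AT1G33840 and AT2G33175. They were selected on their RPKM values and fold change in that same table (a low level in Col-0 and a large rise in nrpe1), so those values describe the choice and test nothing. They are 6 of the 471 genes and 509 features listed in the nrpe1 table, and 6 of the 280 features listed there as higher. Of an estimated 27012 features tested, 1.04% were listed as higher in nrpe1 and 1.88% in either direction; all 6 loci were, because that is how they were selected. One of them, AT4G04293, was not near silent in Col-0, as its level below shows.

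RNA-seq was made from rRNA-depleted total RNA of whole seedlings grown for 2 to 3 weeks in long days. The 12 samples are 3 biological replicates each of the wild type Col-0, nrpe1, the heterozygote swi3b +/- and idn2-1. The labels name no allele for nrpe1 or swi3b. Replicates are pooled in the deposited tables, so values carry no replicate error, the read depth is unknown, and each call of a change is the authors' q-value. RPKM values are read numbers scaled for the length of the transcript and the size of the library. In whole seedlings, more cells with a transcript and more transcript per cell cannot be told apart.

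NRPE1 forms the catalytic core of RNA polymerase V, a plant enzyme whose non-coding transcripts act as scaffolds in RNA-directed DNA methylation. Small RNAs bound by ARGONAUTE proteins pair with these scaffolds, and the DNA methyltransferase DRM2 is brought to the site. The pathway is known for acting on transposons and other repeats, and IDN2 and the chromatin remodelling subunit SWI3B have been placed at its later steps. The NRPE1 transcript itself fell to 25.3% of its Col-0 level in nrpe1 (3.98 against 1.01 RPKM, q = 0 in the authors' deposited table). DNA methylation and small RNA data are not used here.

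A pair of upstream sequences is shown first because one of the 6 loci, AT4G04293, shares its upstream region with a gene outside the set, AT3G29639, that the nrpe1 table also lists as higher. AT3G29639 is 1 of 4 genes preceded by sequence related to the 1000 bases before AT4G04293, and the only 1 of them listed. Both windows hold the 250 bases before the annotated start, read 5' to 3' on the gene's own strand from the RefSeq TAIR10.1 sequence. The first is chr4:2076582-2076831 on the plus strand and the second chr3:11480034-11480283 on the minus strand. Capitals mark bases that are mismatched or unpaired when the windows are aligned.
AT4G04293 upstream: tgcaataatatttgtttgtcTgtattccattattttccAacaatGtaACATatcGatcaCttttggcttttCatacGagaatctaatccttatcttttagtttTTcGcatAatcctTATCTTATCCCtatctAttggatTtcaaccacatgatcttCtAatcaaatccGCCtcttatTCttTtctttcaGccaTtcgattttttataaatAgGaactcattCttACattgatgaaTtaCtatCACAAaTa
AT3G29639 upstream: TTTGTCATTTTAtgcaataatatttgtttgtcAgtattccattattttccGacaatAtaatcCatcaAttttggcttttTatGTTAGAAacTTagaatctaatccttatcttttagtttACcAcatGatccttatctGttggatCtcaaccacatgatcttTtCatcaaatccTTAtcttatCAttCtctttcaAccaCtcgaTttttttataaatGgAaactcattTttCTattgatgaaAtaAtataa
Over 271 alignment columns the windows had 199 identical positions and 30 mismatches, an identity of 73.4%. Each held the letters TATAAA once on the gene's strand, 47 bases before the start of AT4G04293 and 41 bases before that of AT3G29639.

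The window of AT5G27845 is shown with TATAAA in capitals, because this locus had among the largest rises and has a listed gene close by. It is chr5:9868098-9868347 on the plus strand.
AT5G27845 upstream: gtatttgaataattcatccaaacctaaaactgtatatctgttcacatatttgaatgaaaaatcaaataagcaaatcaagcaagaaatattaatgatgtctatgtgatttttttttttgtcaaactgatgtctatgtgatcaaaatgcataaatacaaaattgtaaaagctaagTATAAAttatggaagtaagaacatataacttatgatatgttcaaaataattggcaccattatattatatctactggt
TATAAA began 77 bases before the annotated start of AT5G27845. The locus given by the authors begins 157 bases before that start, so the last 157 bases shown, with these letters, lie inside it. AT5G35205, AT5G35207 and AT2G33175 did not hold the letters on their own strand within 250 bases. The window of AT5G35205 overlaps the AT5G35207 locus. The same letters were found in 30.3% of the windows of 37885 annotated nuclear genes, in 20.9% of those of 4843 pseudogenes and in 33.1% of those of genes listed as higher in nrpe1. The other strand was not searched, and a match is a description of the letters only. GC content of the windows of AT5G27845, AT5G35205, AT5G35207, AT4G04293 and AT2G33175 ran from 19.6% for AT2G33175 to 29.6% for AT4G04293, all under the median of 32% over all genes.

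Among the pseudogenes, AT5G27845 (chr5:9868191-9872479, plus strand) was at 0.612 RPKM in Col-0 and 22.0 RPKM in nrpe1 in the authors' deposited table. That is a 35.9-fold rise (log2 fold change 5.17, q = 0). A locus of a listed transposable element, AT5TE35950, has exactly the same coordinates in that table. The deposited value of the element went from 1.36 RPKM in Col-0 to 104.8 RPKM in nrpe1, a 76.8-fold rise (log2 6.26, q = 0). The element's level was 2.23 times that of the gene in Col-0 and 4.76 times in nrpe1. Since the coordinates are those of a locus that can span overlapping features, which reads belong to AT5G27845 and which to AT5TE35950 cannot be told apart. No element was listed at the other 5 loci.

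AT5G35205 and AT5G35207 are adjacent pseudogenes on the minus strand of chromosome 5, with AT5G35207 upstream. Their loci, chr5:13466904-13471592 and chr5:13471681-13472500, lie 88 bp apart in the authors' deposited table. AT5G35205 was at 0.480 RPKM in Col-0 and 6.18 RPKM in nrpe1 in that deposited table, a 12.9-fold rise (log2 3.69, q = 0). AT5G35207 was at 0.135 RPKM in Col-0, the lowest of the 6, and 7.19 RPKM in nrpe1, the largest fold of the 6 at 53.4 (log2 5.74, q = 0.00876 in the authors' deposited table). As a ratio, the levels of the adjacent loci were thus closer to each other in nrpe1 than in Col-0. The ratio in Col-0 rests on the pooled value of 0.135 RPKM, and the loci were selected on these values. Whether the loci share a transcript was not tested.

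AT4G04293 (chr4:2076832-2077361, plus strand) was the exception in level. It was at 7.67 RPKM in Col-0, near the median of 7.78 RPKM over the 257 genes that rose from a value above 0, and at 52.7 RPKM in nrpe1 in the authors' deposited table. Its 6.87-fold rise (log2 2.78, q = 0) was the smallest fold of the 6, and its nrpe1 level the highest. It stands among the 6 by the size of its rise and not by silence in Col-0.

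The protein-coding gene AT1G33840 (chr1:12283862-12285306, minus strand) encodes a LURP-one-like protein with the DUF567 domain. LURP1, the family's namesake, is known for a part in basal defence against a downy mildew pathogen. AT1G33840 was at 0.656 RPKM in Col-0 and 27.9 RPKM in nrpe1 in the authors' deposited table, a 42.5-fold rise (log2 5.41, q = 0). AT2G33175 (chr2:14062754-14063275, minus strand) encodes a protein that the annotation leaves uncharacterized. It was at 0.465 RPKM in Col-0 and 8.45 RPKM in nrpe1, an 18.2-fold rise (log2 4.18, q = 0.00711 in the authors' deposited table).

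**Figure D1:**
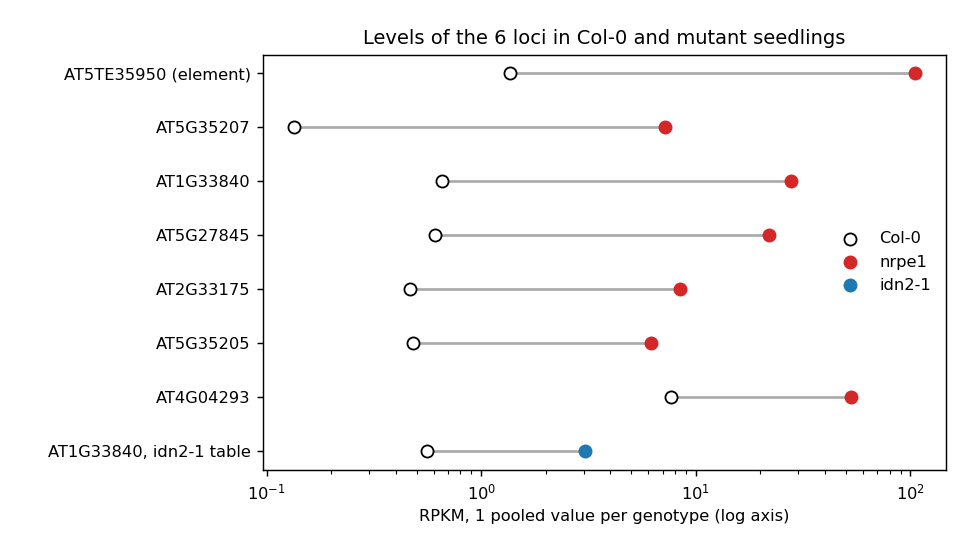
RPKM of the 6 loci and of the element at the AT5G27845 locus, on a log axis, with 1 pooled value per genotype and no error bars. Open points are Col-0, red points nrpe1 and the blue point idn2-1; the Col-0 points of 5 loci lie under 1 RPKM and that of AT4G04293 at 7.67.

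Col-0 levels of the 6 loci spanned 56.9-fold and their nrpe1 levels 8.53-fold. By size of fold they ranked between 2 and 12 among the 257 genes listed as higher from a value above 0. Of those 257 genes, 26 (10%) were below 1 RPKM in Col-0, and the median fold was 1.91. A measure that the choice did not use is locus length. The 4289 and 4689 bp loci of AT5G27845 and AT5G35205 were longer than 89.9% and 93.4% of the 257, and the 522, 530 and 820 bp loci of AT2G33175, AT4G04293 and AT5G35207 stood at percentiles 3.11, 3.89 and 10.5. The 1445 bp locus of AT1G33840 stood at percentile 28.8.

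**Figure D2:**
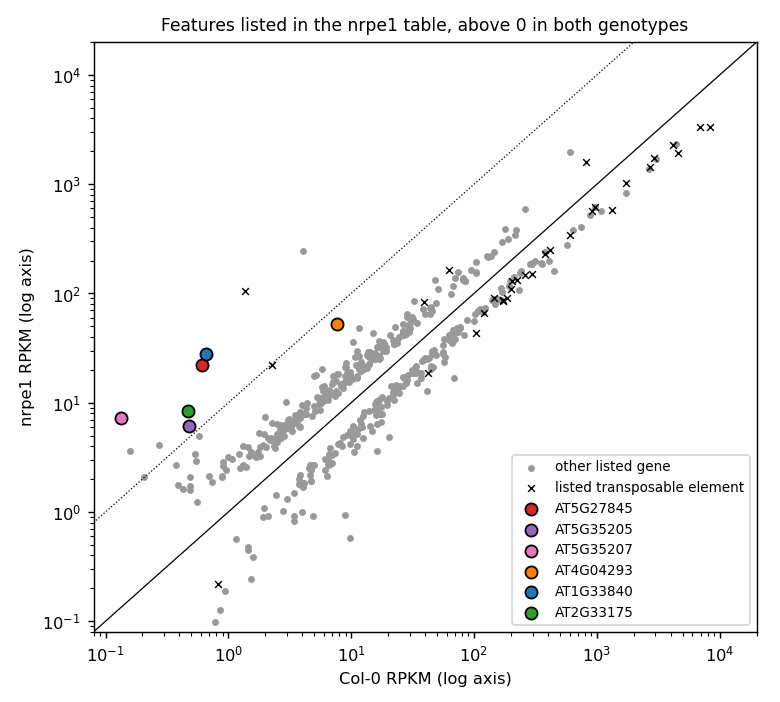
Pooled RPKM in nrpe1 against Col-0, both on log axes, for features of the nrpe1 table above 0 in both genotypes; the solid line marks equal levels and the dotted line a 10-fold rise. Large coloured points are the 6 loci; 5 lie above the dotted line at Col-0 levels under 1 RPKM, and AT4G04293 lies below it.

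The 3 largest rises outside the 6 among genes under 1 RPKM in Col-0 were also read from the authors' deposited table. AT2G05200, a pseudogene, was at 0.158 RPKM in Col-0 and 3.59 RPKM in nrpe1 (22.7-fold, q = 1.72e-08). AT3G29639, whose product is uncharacterized, was at 0.273 and 4.11 RPKM (15.1-fold, q = 0.00099 in that deposited table). AT4G26790, a GDSL-like lipase gene, was at 0.204 and 2.11 RPKM (10.3-fold, q = 0.0429 in that deposited table). The folds of all 3 were above that of AT4G04293, and those of the first 2 above that of AT5G35205. Their nrpe1 levels were below that of each of the 6.

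Related sequence links AT4G04293 with AT3G29639 well beyond the windows shown above. Both genes, each with 2000 bases on either side, were aligned with each other by BLAST. In that alignment chr4:2075137-2077070 matched chr3:11479791-11481731 at 81.6% identity over 1974 aligned bases. The rest of the genome was not searched with this longer stretch. The stretch begins 1695 bases before the start of AT4G04293 and 1698 bases before that of AT3G29639, and both genes are read in the same sense along it. It takes in the first 239 bases of AT4G04293, where identity was 87.0% with 29 mismatches. The longest identical run there, shown to mark how closely the starts match, is chr4:2076848-2076875 on the plus strand, in lower case throughout.
AT4G04293 run: aaaatccaatggatccatcagaatttcc
The stretch reaches the annotated AT3G29639 gene but stops short of its locus in the authors' table, so that locus holds none of the shared sequence. In the authors' deposited table the log2 fold change was 2.78 for AT4G04293 and 3.91 for AT3G29639.

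Upstream sequence of 5 of the loci, 1000 bases before each start, was searched against the nuclear genome with BLAST. The 1000 bases before AT5G27845 had 417 similar stretches elsewhere, those before AT5G35205 had 63, before AT5G35207 47, before AT4G04293 6 and before AT2G33175 0. Genes on the matching strand with such a stretch in the 1000 bases before their start numbered 109 for AT5G27845. Of these, 2 were listed as higher in nrpe1, against 1.04% of all features tested. They include AT5G27850, the next gene beyond the AT5G27845 locus, whose stretch is the one inside that locus given below. Genes counted in the same way numbered 12 for AT5G35205 and 3 for AT5G35207, with 0 listed. For AT4G04293 there were 4, with AT3G29639 the 1 listed. The 1000 bases before AT5G35205 hold the whole AT5G35207 locus, so the counts for AT5G35205 are not separate from the related sequence of AT5G35207. One of the stretches for AT5G27845 lies inside its own locus: chr5:9868245-9868342, just before the annotated start, matched chr5:9872261-9872359 near the far end at 82.2% over 101 aligned bases, on the same strand.

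Every one of the 6 loci had related sequence elsewhere. AT5G35205 had 114 similar stretches of at least 100 bases, 82 of them on annotated pseudogenes, and AT5G27845 had 48, of which 43 were on pseudogenes. AT5G35207 had 45, AT1G33840 14, AT2G33175 10 and AT4G04293 6. The median was 29.5 for the 6 and 5 for the 270 genes listed as higher in nrpe1, of which 44 had none. Of the 7 other pseudogenes listed as higher, AT4G08096 had 168, AT5G35935 127, AT2G05200 61 and AT3G17200 24. AT3G48650 had 7, AT2G16310 4 and AT3G48130 4. The closest relative of AT1G33840 was at chr2:6214165-6214712, inside LURP1, with 84.9% identity over 562 bases. That stretch lies within the locus of a listed element, AT2TE25295, which fell from 4595 to 1937 RPKM in nrpe1 (log2 -1.25, q = 0.000943 in the authors' deposited table).

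How far a read can be placed was described by the share of 31-base words found once in the nuclear genome. It was 100% for AT5G27845 and AT4G04293, 99.8% for AT1G33840 and 97.2% for AT5G35205. It was 81.3% for AT2G33175, whose whole 522 bases match a stretch of chromosome 1 at 91.6%, and 70.1% for AT5G35207, whose best match was 93.0% over 770 bases. Reads from these last 2 loci and from their relatives may not be told apart, and the part of this in their values was not tested. The same limit applies outside the 6 to AT3G29639, where the share was 71.4%. Its whole locus matched a stretch of chromosome 5 at 94.6%. Among the 270 genes listed as higher, 243 (90%) had at least 95% of such words, against 4 of the 6.

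**Figure D3:**
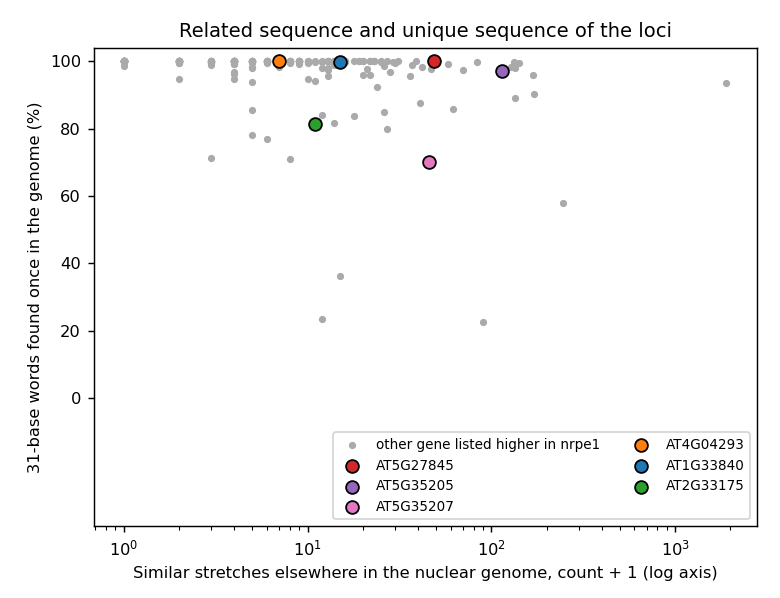
Share of 31-base words found once in the nuclear genome (per cent) against the number of similar stretches elsewhere (count + 1, log axis) for genes listed as higher in nrpe1. Grey points are other genes and coloured points the 6 loci; AT5G35207 at 70.1% and AT2G33175 at 81.3% lie below the other 4 loci.

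Genes beside the loci were listed in a few cases. AT5G27850, a gene of the ribosomal protein L18e/L15 superfamily, lies 672 bp beyond the AT5G27845 locus on the same strand (chr5:9873152-9874598). It was at 605 RPKM in Col-0 and 1969 RPKM in nrpe1 in the authors' deposited table, a 3.25-fold rise (log2 1.70, q = 2.92e-11). AT1G33850, a ribosomal protein S19 family gene 2606 bp from AT1G33840 and upstream of it on the same strand (chr1:12287913-12288210), was listed at 0 in Col-0 and at 17.7 RPKM in nrpe1 in the authors' deposited table (q = 0.000137). Only 76.9% of its 31-base words were unique. The other neighbours of the 6 loci, PTM and AT5G35200 beside the chromosome 5 pair among them, were in none of the 3 tables. A feature that is not listed cannot be called unchanged.

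Within 10 kb of another feature listed as higher lay 4 of the 6 loci and 31 of the 270 genes listed as higher (11.5%). AT5G35205 and AT5G35207 count for each other. For AT4G04293 the nearest such feature was 247641 bp away and for AT2G33175 673790 bp.

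**Figure D4:**
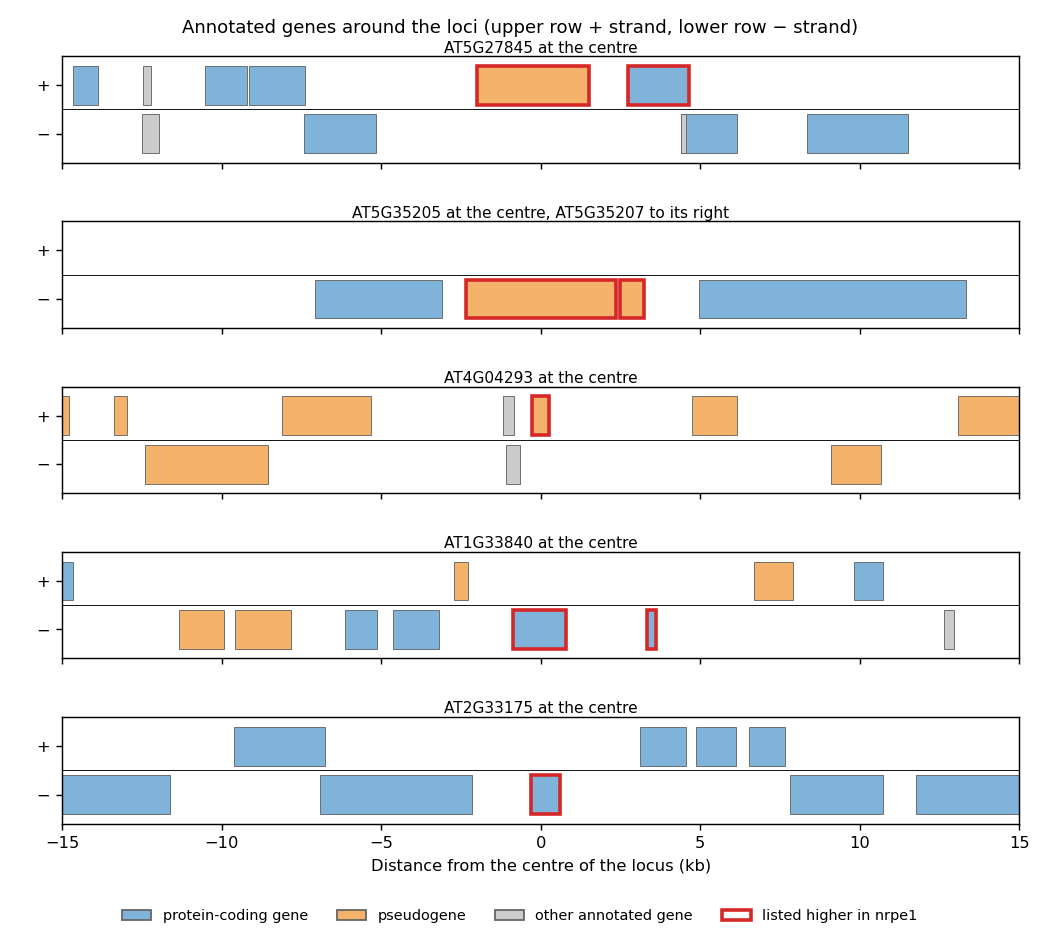
Annotated genes within 15 kb of the loci, by distance in kb from the centre of each locus, with the plus strand above and the minus strand below. Blue boxes are protein-coding genes, orange boxes pseudogenes, grey boxes other genes, and red outlines mark those listed as higher in nrpe1, among them the neighbours of AT5G27845 and AT1G33840.

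Surroundings differed among the 6. Within 50 kb on each side, AT4G04293 had 8 protein-coding genes and 14 pseudogenes, AT5G35205 had 9 and 6, and AT5G35207 had 10 and 7. AT5G27845 had 20 protein-coding genes and 5 pseudogenes, and AT1G33840 had 22 and 5. AT2G33175 was the exception, with 33 protein-coding genes and 0 pseudogenes. The median over 269 genes listed as higher was 27 protein-coding genes and 1 pseudogene, and the same over 201 genes listed as lower. At least 3 pseudogenes were near 5 of the 6 loci, 24.2% of genes listed as higher and 28.4% of genes listed as lower. The adjacent AT5G35205 and AT5G35207 share most of that window and count each other. The trait is not particular to these loci. Of the 7 other pseudogenes listed as higher, AT4G08096 had 20 near it, AT2G05200 10, AT5G35935 7, AT2G16310 6 and AT3G17200 4. AT3G48650 had 2 and AT3G48130 1.

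**Figure D5:**
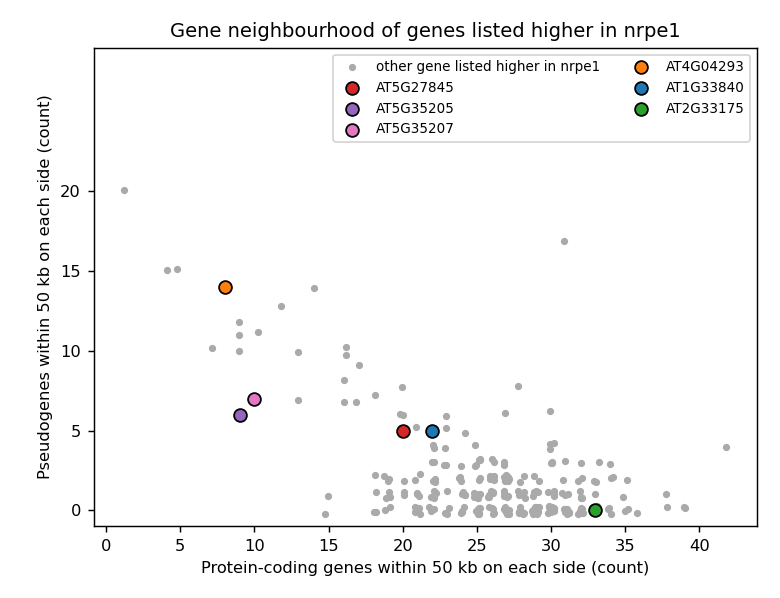
Pseudogenes against protein-coding genes within 50 kb on each side (counts) of genes listed as higher in nrpe1. Grey points are other genes, shifted by up to 0.25 so that they do not hide each other, and coloured points the 6 loci; AT2G33175 lies at 33 protein-coding genes and 0 pseudogenes, the other 5 at 5 or more pseudogenes.

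In the other mutants, which share the Col-0 control, few of the loci were listed. None of the 6 was in the swi3b +/- table, where 1.87% of features tested were listed as higher and 2.43% in either direction. AT1G33840 alone was in the idn2-1 table, where 1.24% were listed as higher and 3.18% in either direction. In the authors' deposited table for idn2-1 it was at 0.561 RPKM in Col-0 and 3.03 RPKM in the mutant, a 5.41-fold rise (log2 2.44, q = 0.000189). The Col-0 values of that table are on another scale than those of the nrpe1 table, by a median of 0.856 over 134 shared features. Its log2 fold change was 2.97 larger in nrpe1; this difference was not tested. The smallest listed rises of features between 0.1 and 1 RPKM in Col-0 were 2.20-fold for nrpe1, 1.80-fold for swi3b +/- and 2.16-fold for idn2-1 in the deposited tables. These are not detection limits, and a locus that is not listed may still have risen.

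A list of 31 genes of the silencing machinery also holds the demethylase genes ROS1, DME, DML2 and DML3. Of these 31, 0 rose and 2 fell in nrpe1, which is 6.45% against 1.88% of all features tested. They were NRPE1, the gene mutated in this genotype, and ROS1. Apart from the mutated gene the share thus rests on ROS1 alone. ROS1, a DNA demethylase that removes methylated cytosine, was at 8.88 RPKM in Col-0 and 0.939 RPKM in nrpe1 in the authors' deposited table. None of the list was listed in swi3b +/-. In idn2-1, ROS1 and DML2 were listed as lower, 6.45% of the list against 3.18% of all features tested. Both are demethylase genes, so these shares do not describe a fall of silencing factors. Of 2 known silenced targets, SDC, an F-box gene silenced by DNA methylation, rose 3.09-fold in nrpe1 (0.692 to 2.14 RPKM, q = 0.0187 in the authors' deposited table), and FWA was not listed. Of 6 SWI/SNF subunit genes, SWI3D (AT4G34430) rose 1.55-fold in nrpe1 (5.55 to 8.62 RPKM, q = 0.0444 in the authors' deposited table), and none was listed in the other tables. The 3 tables listed none of 2 leaf, 5 flower, 2 seed and 2 root marker genes.

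By distance in log2 RPKM over Col-0 and nrpe1, among 448 listed genes outside the 6 loci, the pattern nearest to AT5G35205 was that of AT2G16310, a transcribed pseudogene (distance 0.403). AT2G16310 was at 0.576 RPKM in Col-0 and 5.0 RPKM in nrpe1 in the authors' deposited table and was listed in idn2-1 too. Outside the 6 it was also nearest to AT2G33175 (0.819), AT5G27845 (2.14) and AT1G33840 (2.49). AT5G27845 and AT1G33840 lay closer to each other, 0.357 apart. AT2G33175 lay closer to AT5G35205, at 0.455, but AT5G35205 itself was nearer to AT2G16310. Outside the 6, AT2G05200 was nearest to AT5G35207 (1.03), and XTH18, a gene of cell wall xyloglucan remodelling, to AT4G04293 (0.616). Within the 6, the loci nearest to AT5G35207 and AT4G04293 lay further off, at 1.80 and 3.66. The 6 were selected on these same RPKM values, so the distances among them describe the choice and test nothing.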

How the data were processed

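Values come from 3 deposited tables that set each mutant against Col-0. The authors give, per the file headers, an RPKM value per genotype, a log2 fold change, a p-value and a q-value per feature, with coordinates. TopHat, Cufflinks and TAIR10 are named in the submitters' processing notes; versions, the test and strandedness are not given in the sources used here. Replicates were pooled by the authors, so no test was run; 0 columns of per-sample values were left unmapped. Only features with q below 0.05 are listed. Where 1 genotype is at 0, the deposited log2 cell holds a placeholder and was not used.

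The number of tests was recovered by solving the Benjamini-Hochberg formula for it, a step tested on simulated data. All 470 genes of the nrpe1 table that matched RefSeq TAIR10.1 by identifier, of 471, overlapped their reference gene, and sequences and classes come from that release. Similar stretches were found with BLAST+ 2.17.0 (at least 100 bases, e-value 1e-05). Tables and plots were made with python 3.11.15, pandas 2.3.3, numpy 2.4.6 and matplotlib 3.10.9.

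The loci and lists were chosen with earlier results of these data known. Named besides the 6 loci are overlapping listed features, the nearest listed pattern per locus, the 3 next largest rises under 1 RPKM in Col-0, listed neighbours and listed members of the silencing lists. LURP1, AT2TE25295, PTM and AT5G35200 were named after values were seen. An upstream window is not reported here. Alternatives were stricter q limits, a minimum fold or level, pseudocounts, overlap rules and window sizes.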

Additional observations from a re-analysis of the deposited data

How the results depend on the processing

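All 6 loci stayed listed as higher at q below 0.01, at 2-fold and at 1 RPKM. With Bonferroni adjustment 4 did, without AT5G35207 and AT2G33175. The 280 features listed as higher in nrpe1 became 161 at q below 0.01, 70 with Bonferroni adjustment and 127 at 2-fold. The counts of loci in the other tables and of overlapping elements did not move under the alternatives run. The 7 log2 fold changes of the loci ran from 2.44 to 5.74; a pseudocount of 0.1 gave 2.25 to 5.21, one of 0.5 gave 1.74 to 4.62 and one of 1 gave 1.37 to 4.12, and none reversed. By fold, 5 of the 6 loci ranked in the top 10 of the 257 genes above 0 in both genotypes. With a pseudocount, which adds the 13 genes at 0 in Col-0 for 270 in all, 3 did at 0.1 and 5 at 0.5 and at 1. Counts of neighbouring genes scale with the window, and the median number of pseudogenes was 2 for the loci and 0 for genes listed as higher at 25 kb, and 18 and 2 at 100 kb. No paired analysis was possible because the tables hold 1 pooled value per genotype, and for the same reason no replicate could be left out. Unknown depth limits the values under 1 RPKM most.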

Other observations

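Beyond the 4 pseudogenes above, 7 more were listed as higher in nrpe1 in the authors' deposited table, and 5 were listed as lower. With those 4, 11 of 4843 annotated pseudogenes were listed as higher, and how many of the 4843 were tested is not known. AT3G48130, a 177 bp locus, was at 4.05 RPKM in Col-0 and 246.8 RPKM in nrpe1 (60.9-fold, q = 0.00563 in the authors' deposited table). It lies 327 bp from AT3G48131, described below, so the rises of these neighbours may not be separate observations. AT5G35935 went from 0.393 to 1.78 RPKM in nrpe1 (4.53-fold) and was listed in the idn2-1 table as well (5.15-fold). In all, 2 pseudogenes were listed as higher and 2 as lower in swi3b +/-, and 7 and 18 in idn2-1. Over all features tested, 1.04% were listed as higher in nrpe1, 1.87% in swi3b +/- and 1.24% in idn2-1. In either direction the shares were 1.88%, 2.43% and 3.18%. Without the number of pseudogenes tested, these counts cannot show whether any response was particular to pseudogenes. The pseudogenes named here were chosen after their values were seen.

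In the authors' deposited table, 18 features were listed at 0 in Col-0 and higher in nrpe1, 13 genes and 5 elements. AT3G48131, a 132 bp locus, was at 302.4 RPKM in nrpe1 (q = 9.00e-05), and the element AT4TE63620 at 301.2 RPKM with q = 0.0499, the largest q of that deposited table. Both were far above AT1G33850 at 17.7 RPKM, and no fold can be given for them.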
